A study of Mus musculus with 6 samples.

Results

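Pax7-positive Myog-negative cells were examined in cultures of mouse muscle-derived stem/progenitor cells (MDSPCs), slowly adhering cells enriched from dissociated skeletal muscle by repeated preplating on collagen. A member was a kept cell barcode with 1 or more unique molecular identifiers (UMIs, tags that count each RNA molecule once) of Pax7 and 0 of Myog. Barcodes were kept at 1000 or more UMIs and under 15% of UMIs from mitochondrial genes. By this rule 11073 of 61675 kept cells were members. The members were thus chosen by their measured Pax7 and Myog UMIs, so the values of these genes are given only as a description. The comparisons concern other genes, the cell cycle and the number of genes per cell.

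The young group held 3 populations and the old group another 3, all grown in proliferation medium and profiled by droplet-based 3′ single-cell RNA sequencing. The labels call each population a biological replicate and name no genotype, treatment, strain, sex or exact age. Cultured cells had passed through enzymatic dissociation, preplating and growth in flasks, so none of the values below describes cells in muscle.

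Pax7 is a paired-box transcription factor that marks satellite cells, the resident stem cells of skeletal muscle. Activated satellite cells divide as myoblasts that carry Myf5 or Myod1, and myoblasts that leave the cycle switch on Myog and then the fusion and contractile genes. A cell with Pax7 and without Myog is the state usually placed before that switch. Pax7 lies on mouse chromosome 4 (chr4:139737062-139833528, GRCm38) and spans 96.5 kb.

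The libraries held between 133974782 and 196481316 UMIs, and the kept cells had median depths between 13001 and 19951 UMIs. Young replicate 1 and old replicate 1 were counted against a gene list of 21849 features and the other 4 samples against a list of 32285, so all comparisons used the 21485 shared identifiers. Pairs of libraries shared between 23 and 35 barcodes, all treated as separate cells. No doublet caller was used, and doublets may remain among the members.

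Members made up 11.9%, 41.1% and 0.0464% of the cells of young replicates 1, 2 and 3. In old replicates 1, 2 and 3 they made up 11.9%, 24.0% and 18.3%. Young replicate 2 was the highest of all samples and young replicate 3, with 5 members among 10782 cells, the lowest, so the old values lay within the range of the young. The mean share was 17.7% ± 21.1 (SD, n = 3) in young and 18.1% ± 6.08 (SD, n = 3) in old samples. The difference of 0.408 percentage points was smaller than the spread between replicates (two-sided exact permutation test, p = 1, smallest possible p = 0.1). The share is made from the Pax7 and Myog UMIs that chose the members, so it is a description. A test of 3 against 3 samples could not have reached 0.05. The difference was -8.40 points without young replicate 3 and 12.1 points without young replicate 2. Because young replicate 3 held fewer than 50 members, the comparisons of genes below used the other 5 samples.

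**Figure D1:**
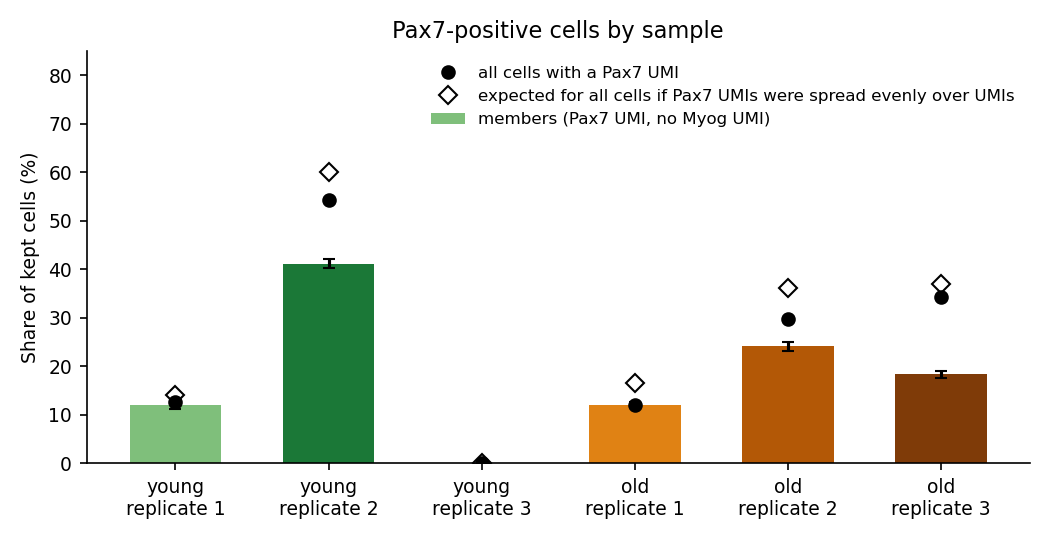
Bars give the share of kept cells (%) that were members in each sample, with 95% Wilson intervals for counting error. Filled circles give all cells with a Pax7 UMI and open diamonds the share expected had Pax7 UMIs fallen evenly over the UMIs of all cells. Each circle lies below its diamond except in young replicate 3, where both stand at 0.0464%.

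Most members rested on little Pax7 RNA. A single Pax7 UMI was found in 83.3% and 51.6% of the members of young replicates 1 and 2, and in 65.4%, 63.7% and 65.6% of those of old replicates 1, 2 and 3. The highest number in any member was 9. Pax7 reached 9.93, 54.4 and 0.0262 CPM (the gene's share of all UMIs, scaled to a fixed total) over all kept cells of young replicates 1, 2 and 3, and 12.3, 22.3 and 33.1 CPM in the old replicates. Had these UMIs fallen on cells in proportion to total UMIs, 14.0% and 60.0% of cells in young replicates 1 and 2 would have held 1, against 12.7% and 54.2% observed. In old replicates 1, 2 and 3 the expected shares were 16.5%, 36.1% and 37.0% and the observed shares 12.1%, 29.7% and 34.2%. Fewer cells held Pax7 than an even spread gives in each of these 5 samples.

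RNA free in the droplets can also give a cell a Pax7 UMI. As a comparison, cells with a Myog UMI and 5 or more UMIs of other myocyte genes, a class expected to have lost Pax7, were thinned to 5000 UMIs together with the Myog-negative cells. The class held 272, 2079, 49, 1191 and 6266 cells in young replicates 1 and 2 and old replicates 1, 2 and 3. After thinning, 5.66% of this class held a Pax7 UMI in young replicate 1, against 5.39% of Myog-negative cells. In old replicate 1 the shares were 6.67% and 5.47%. In these libraries the share of Pax7-positive cells did not exceed that of the myocyte class, which in old replicate 1 rested on 49 cells (unthinned Wilson 95% interval 4.44% to 21.8%). The members of the same libraries held more Myod1 than their matched cells, with the values given beside that gene, and the part of free RNA was not tested. In young replicate 2 the Myog-negative cells stood higher, at 26.2% against 15.6%, as they did in old replicate 2, at 11.7% against 6.28%, and in old replicate 3, at 20.4% against 10.9%. Without thinning, the myocyte class held Pax7 UMIs in 12.9%, 38.5%, 10.2%, 20.2% and 26.7% of its cells in the same order of samples, at median depths of 11130.5, 16161, 12808, 20890 and 13276 UMIs.

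Myf5, the other marker given for these cells, did not mark them in every sample. Its counts summed over the members were 0 in young replicate 1, where the 1033 Pax7-negative Myog-negative cells matched to them on total UMIs held 0 as well. In the other samples its level in the matched members was 35.1 CPM in young replicate 2 and, in old replicates 1, 2 and 3, 34.8, 62.2 and 41.3 CPM. Matched cells held 40.5 CPM in young replicate 2 and 10.8, 58.3 and 34.6 CPM in the old replicates. Myf5 was furthest apart in old replicate 1, with a log2 ratio of 1.68, and the other log2 ratios lay between -0.21 and 0.25. The label therefore describes a rule on Pax7 and Myog, and the members are called by that rule here.

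The levels of other cell types' markers are given for the matched members. Over the 5 samples the summed level of 7 endothelial markers in members ranged from 1.83 to 3.98 CPM, with Tie1 at 0, and in matched cells from 1.55 to 4.41 CPM. The 8 immune markers summed to between 1.55 and 8.11 CPM in members, with Adgre1, Cd3e and Tyrobp at 0, and to between 1.70 and 9.39 CPM in matched cells. They stood at 8.10 against 3.98 CPM in old replicate 1 and were lower in members of every other sample. The 6 Schwann cell markers summed to between 0.975 and 31.4 CPM in members, with Sox10 at 0 and Ngfr at 24.8 CPM in young replicate 2, and to between 1.04 and 24.6 CPM in matched cells. Fibro-adipogenic markers, many of which cultured muscle cells also express, summed to between 210 and 450 CPM in members and 247 and 534 CPM in matched cells, with Lum at 0 in both. The tenocyte markers summed to between 140 and 268 CPM, nearly all of it Scx, a transcription factor of tendon cells, which held between 133 and 266 CPM in members and 114 and 307 CPM in matched cells. Tnmd and Kera were at 0 in the matched members, and Tnmd held 2 counts over all members of young replicate 2. Smooth muscle and pericyte markers summed to between 72.0 and 418 CPM in members and 26.1 and 407 CPM in matched cells, higher in members in every sample. Their list includes Des, which is also among the satellite cell and myoblast markers. Over all members Des held 53.3 and 314 CPM in young replicates 1 and 2 and 54.6, 26.5 and 311 CPM in the old replicates. Adipocyte markers summed to between 12.7 and 42.3 CPM in members and 12.96 and 48.9 CPM in matched cells. Myocyte markers other than Myog were higher in members of young replicate 1, at 82.0 against 34.8 CPM, and of old replicate 1, at 20.6 against 9.87 CPM. They were lower in the other 3 samples, at 133 against 151 CPM in young replicate 2 and 89.1 against 114 and 566 against 671 CPM in old replicates 2 and 3. Under UMI matching Gsn and Osr1 of 7 tested fibro-adipogenic markers, Fabp4 of 2 adipocyte and Acta1 of 9 myocyte markers were called lower, and none of the other lists. Over all genes tested 11.1% were called lower. Among these markers 0 were called when cells were also matched on the share of UMIs from long genes. The part of these cell types in the results was not tested. The satellite cell and myoblast markers other than Pax7 summed to between 462 and 2078 CPM in members and 207 and 2016 CPM in matched cells. They were lower in members of young replicate 2, at 1552 against 1630 CPM, and higher in members of every other sample.

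Members were compared with cells of the same sample that held 0 Pax7 and 0 Myog UMIs and lay within 10% of their total UMIs, each used once. This gave 1033 and 3038 pairs in young replicates 1 and 2, and 1206, 2098 and 2256 pairs in old replicates 1, 2 and 3. No partner remained for the other members, so that 9631 of 11068 were matched, and 3038 of 4436 in young replicate 2. A cell with 0 Pax7 UMIs may still have held Pax7 RNA that was not sampled, so the matched cells are not a class without Pax7. In young replicate 2 the partners were 3038 of 3190 Pax7-negative Myog-negative cells. How far this narrows the differences, above all where Pax7 was widely detected, was not tested. Unless all members are named, levels beside matched cells are those of the matched members. Counts were summed per sample and class and tested with edgeR with the sample as a block. Of 12511 genes tested, 838 were higher in members (6.7%) and 1393 lower (11.1%) at an adjusted p under 0.05, together 17.8%. Over all genes tested, 35.3% had the same direction in all 5 samples. For the genes named by fold change the same direction in every sample was a condition of the choice and supports nothing. These counts depended on single libraries. Without young replicates 1 or 2 there were 263 or 232 higher and 516 or 545 lower genes. Without old replicate 1 there were 1653 higher and 2014 lower, without old replicate 2, 363 and 764, and without old replicate 3, 270 and 569.

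The direction of these differences followed the genomic span of the gene. Over genes spanning under 10 kb the median log2 fold change was -0.10, and it was -0.03 from 10 to 30 kb, 0.06 from 30 to 100 kb, 0.12 from 100 to 300 kb and 0.19 over 300 kb. Of the genes under 10 kb, 0.585% were called higher and 24.4% lower, and of those over 300 kb, 23.8% higher and 0.713% lower. Across 12507 genes Spearman's correlation between span and log2 fold change was 0.393, a description over genes that share the same 10 summed libraries. In members a median of 4.71% and 6.82% of UMIs came from genes over 100 kb (Pax7 left out) in young replicates 1 and 2, against 3.82% and 5.56% in matched cells. In old replicates 1, 2 and 3 the values were 5.84%, 5.98% and 5.26% in members and 5.21%, 5.31% and 4.35% in matched cells. The share was higher in members in 5 of 5 samples (two-sided exact sign-flip permutation test, p = 0.0625, the smallest possible). Whether intronic reads were counted is not given in the sources used here, and the source of this pattern was not tested.

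**Figure D2:**
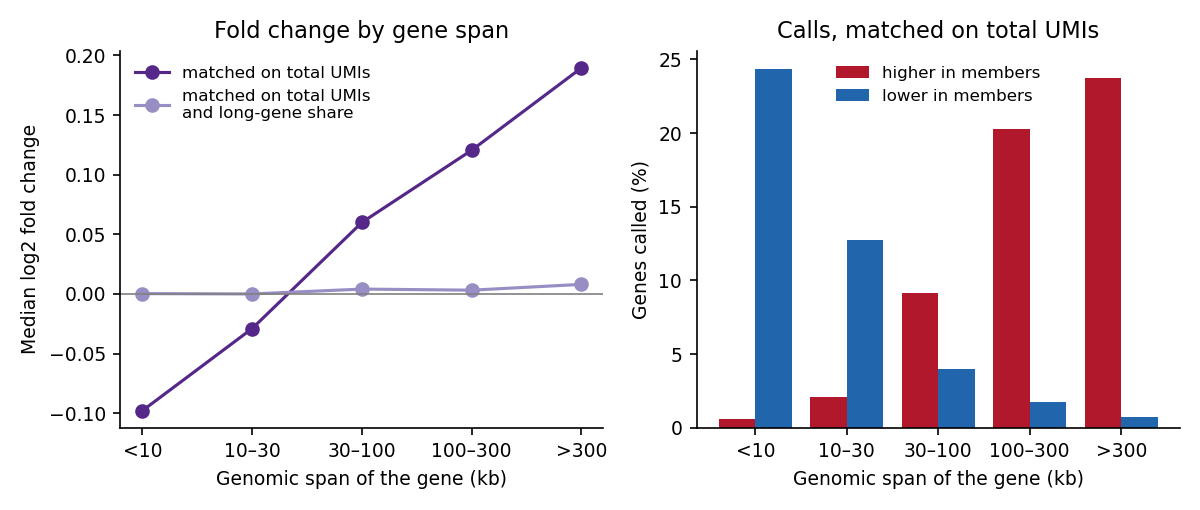
The left panel plots the median log2 fold change of members against matched cells by the genomic span of the gene (kb) under both matchings. The right panel plots the percentage of genes called in each direction when cells were matched on total UMIs alone. The left line climbs from -0.10 to 0.19 under UMI matching and stays within 0.01 of 0 when the long-gene share was matched as well. The second matching itself held the share of genes over 100 kb equal, which in part sets its flat line.

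Members were therefore also matched within 20 strata of the long-gene share, a choice made after these values had been seen. This left 1030 and 2545 pairs in young replicates 1 and 2 and 1202, 2038 and 1919 pairs in the old replicates. With the long-gene share held equal, 0 of 12335 genes were higher and 5 were lower (0.0405%) by edgeR. At an unadjusted p under 0.05 there were 1182 genes (9.58%), and DESeq2 called 7 higher (0.0567%) and 53 lower (0.43%). The 838 genes called higher under UMI matching had a median log2 fold change of 0.22 there and 0.08 here, and 779 of them kept their sign. For the 1392 lower genes tested in both, the medians were -0.19 and -0.05, and 1194 kept their sign. Spearman's correlation with span was 0.00813 over 12331 genes. The matching itself held the summed share of genes over 100 kb equal. The flattening by span and the smaller differences of long genes therefore follow in part from that choice. The spread between samples was about the same, with a biological coefficient of variation of 0.0760 under UMI matching and 0.0757 with the long-gene share matched. Values below are under UMI matching unless the second matching is named.

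The 5 genes lower under both matchings were Ccl2, Sgk1, Anxa8, Edn1 and Ccn1. Ccl2 (ENSMUSG00000035385) encodes a chemokine that draws monocytes. Its level in members was 31.5 and 2.06 CPM in young replicates 1 and 2 and, in old replicates 1, 2 and 3, 30.9, 15.9 and 9.97 CPM. Matched cells held 49.7, 2.73, 54.9, 27.5 and 16.9 CPM in the same order, so Ccl2 was lower in members in 5 of 5 samples. Over all members of young replicate 2 its level was 2.62 CPM, close to the 2.73 CPM of the matched cells, and at 3 or more Pax7 UMIs it was 4.41 CPM. The log2 fold change was -0.81 ± 0.06 (SE, n = 5, edgeR adjusted p = 0.00231) and, with the long-gene share matched, -0.72 ± 0.06 (SE, n = 5, edgeR adjusted p = 0.0116).

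Sgk1 (ENSMUSG00000019970), a kinase induced by serum and glucocorticoids, held 50.3 and 152 CPM in the members of young replicates 1 and 2 and 30.8, 58.3 and 29.8 CPM in those of the old replicates. In matched cells it held 61.2, 187, 49.2, 75.3 and 42.3 CPM. It was lower in 5 of 5 samples, by -0.51 ± 0.05 on the log2 scale (SE, n = 5, edgeR adjusted p = 0.00467), and by -0.48 with the long-gene share matched (edgeR adjusted p = 0.0373). The annotated span of Sgk1 is 118 kb, and its direction was opposite to that of most genes of such a span. The span covers alternative starts, and which of them the counted RNA came from was not tested.

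Anxa8 (ENSMUSG00000021950), an annexin that binds phospholipids in the presence of calcium, held 10.2 CPM in the members and 16.1 CPM in the matched cells of young replicate 1. In old replicates 1, 2 and 3 it held 24.2, 3.54 and 6.28 CPM in members against 63.4, 7.41 and 12.5 CPM. It was, in young replicate 2, near the limit of detection, with 0 counts against 3. Its log2 fold change was -1.15 ± 0.11 (SE, n = 5, edgeR adjusted p = 0.00467), and -1.13 with the long-gene share matched (edgeR adjusted p = 0.0413).

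Edn1 (ENSMUSG00000021367), the precursor of the vasoconstrictor peptide endothelin, held 1.95 CPM in the members and 3.35 CPM in the matched cells of young replicate 1. Old replicate 1 held 9.47 against 26 CPM. In young replicate 2 and in old replicates 2 and 3 it rested on few counts, 2, 6 and 9 in members against 2, 25 and 25 in matched cells. It was lower in 4 samples and equal in the other, with a log2 fold change of -1.41 under UMI matching (edgeR adjusted p = 0.00535) and -1.48 with the long-gene share matched (edgeR adjusted p = 0.0452).

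Ccn1 (ENSMUSG00000028195), a secreted matricellular protein of the CCN family, held 65.8 and 23.8 CPM in the members of young replicates 1 and 2 and 59.6, 26.9 and 54.3 CPM in the old replicates. In matched cells it held 80.5, 28, 77.1, 31.1 and 61.8 CPM. The difference was small but the same in 5 of 5 samples, at -0.35 ± 0.04 on the log2 scale (SE, n = 5, edgeR adjusted p = 0.00482) and -0.34 with the long-gene share matched (edgeR adjusted p = 0.0452). Edn1, Sgk1 and Ccn1 were named after their values were seen.

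These 5 calls lay close to the threshold. With another random order of matching, edgeR called 0 genes, and the adjusted p of each of the 5 was 0.0500, while the log2 fold changes were -0.67 for Ccl2, -0.48 for Sgk1, -1.15 for Anxa8, -1.45 for Edn1 and -0.33 for Ccn1. Without young replicate 1, old replicate 2 or old replicate 3, edgeR called 0 genes, and without young replicate 2 it called 4, among them Ccl2 and Anxa8. Without old replicate 1 edgeR called 1 higher and 20 lower, among them Ccl2, Sgk1, Anxa8 and Ccn1 but not Edn1. With all 5 samples DESeq2 called each of the 5 genes, with adjusted p between 2.80e-10 and 0.000988.

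**Figure D3:**
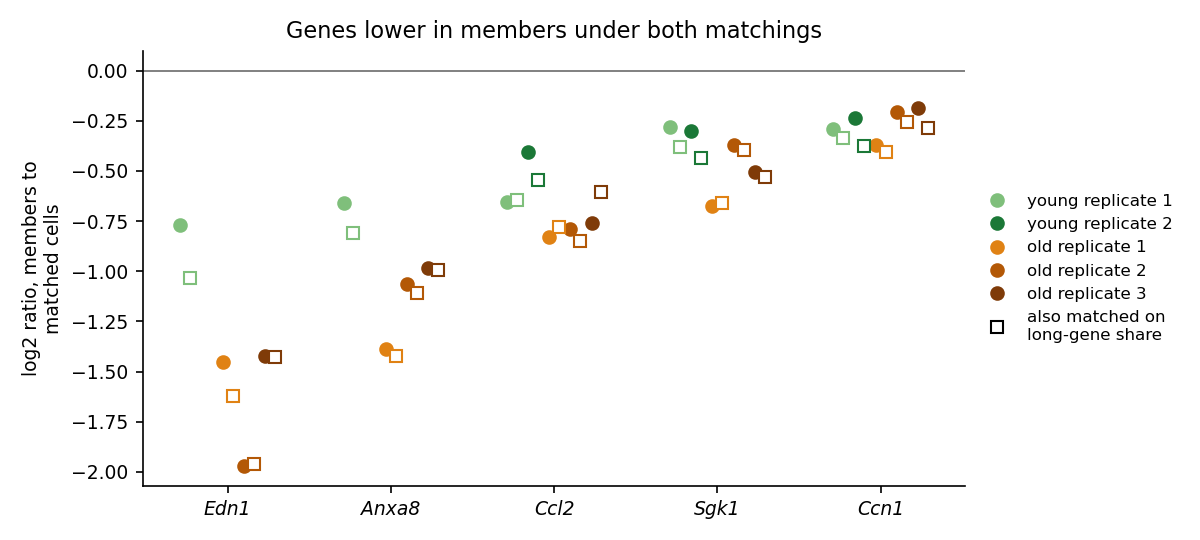
Each point is the log2 ratio of members to matched cells in 1 sample for the 5 genes lower under both matchings, with circles for cells matched on total UMIs and open squares for cells matched on the long-gene share as well. Samples with 3 or fewer counts in both classes are left out. All points lie below 0, reaching -1.97 for Edn1 and lying between -0.19 and -0.40 for Ccn1.

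The promoters of Ccn1, Edn1, Anxa8 and Sgk1 were searched for 4 motifs on both strands over the 250 bases before the RefSeq start (GRCm38.p6). That of Ccl2 is not given here. The motifs were that of AP-1 (TGANTCA), that of TEAD (GGAATG), the CArG box bound by serum response factor, and the TATA box (TATAAA). The promoters of Ccn1 and Edn1 each held 1 TEAD motif, 103 and 207 bases before the start, and are printed with every motif found in capitals. A TEAD motif occurred in 12.6% of 27025 promoters of that length, and a TATA motif, found 25 bases before the Ccn1 start, in 12.97%. The Anxa8 promoter held none of the 4, and of 6 alternative starts of Sgk1, 1 held a TEAD motif and another 2 a TATA motif. A match is a run of letters and not a measured site.
Ccn1, chr3:145649986-145650235, minus strand: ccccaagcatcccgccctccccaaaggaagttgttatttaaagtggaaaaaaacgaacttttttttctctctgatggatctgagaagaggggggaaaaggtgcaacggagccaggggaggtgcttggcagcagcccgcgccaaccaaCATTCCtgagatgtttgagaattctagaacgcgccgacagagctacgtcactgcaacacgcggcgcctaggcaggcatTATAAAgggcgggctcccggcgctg
Edn1, chr13:42301226-42301475, plus strand: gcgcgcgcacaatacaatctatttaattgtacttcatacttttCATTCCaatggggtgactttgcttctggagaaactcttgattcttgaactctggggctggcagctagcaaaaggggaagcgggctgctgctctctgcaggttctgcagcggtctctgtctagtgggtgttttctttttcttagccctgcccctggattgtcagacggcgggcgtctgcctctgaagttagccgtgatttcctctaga

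The other genes named as lower under UMI matching were not called by edgeR with the long-gene share matched. Tm4sf1, a tetraspanin-like surface protein, held 934 and 40.9 CPM in the members of young replicates 1 and 2 and 482, 227 and 171 CPM in the old replicates, against 1190, 48.9, 783, 396 and 356 CPM in matched cells. Its log2 fold change was -0.73 (edgeR adjusted p = 0.0171) and -0.57 with the long-gene share matched (edgeR adjusted p = 0.364). Anxa3, another annexin, went from -0.89 (edgeR adjusted p = 0.00546) to -0.83 (edgeR adjusted p = 0.0672). Serpinb2, an inhibitor of plasminogen activators, went from -1.49 to -1.52, the latter with an edgeR adjusted p of 0.212. Ier3, an immediate early gene, went from -0.78 to -0.63, and Perp, a junction protein, from -1.02 to -0.95. DESeq2 did call these 5 genes under the second matching, with adjusted p of 2.52e-08 for Tm4sf1, 6.58e-14 for Anxa3, 0.000578 for Serpinb2, 0.000277 for Ier3 and 0.00544 for Perp. Anxa3 held 0 counts against 3 and Perp 6 against 6 in young replicate 1, and Serpinb2 only 4 against 7 in old replicate 2.

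The genes named as higher under UMI matching were mostly very long, and edgeR called none with the long-gene share matched. Maml3, a coactivator of Notch signalling that spans 419 kb, held 37.1 and 260 CPM in the members of young replicates 1 and 2 and 83.1, 66.7 and 126 CPM in the old replicates. In matched cells it held 17.1, 171, 42.3, 47.3 and 86.6 CPM, lower in all 5 samples. Its log2 fold change was 0.63 ± 0.09 (SE, n = 5, edgeR adjusted p = 0.00846) and fell to 0.35 with the long-gene share matched (edgeR adjusted p = 0.447, DESeq2 adjusted p = 0.0238). Tcf7l2, a transcription factor of Wnt signalling, went from 0.54 to 0.36 (DESeq2 adjusted p = 0.0312 for the second), Pde4d, a phosphodiesterase, from 0.54 to 0.24, and the guidance receptor Robo1 from 0.53 to 0.32. The other long genes named by the same rule were Cdh18, Vav3, Mme, Tenm3, Slc8a1, Grip1, Pclo, Klf12 and Psd3, with log2 fold changes from 0.51 to 0.71 under UMI matching and from 0.23 to 0.48 under the second. Cplx2, which spans 12.6 kb, stood at 0.52 and 0.32.

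Dmrt2 was the shortest of the named higher genes at 6.58 kb. It encodes a doublesex-related transcription factor of the early muscle lineage. Its level in members was 1.58 and 2.41 CPM in young replicates 1 and 2 and 2.65, 16.1 and 25 CPM in the old replicates. Matched cells held 1.16, 1.57, 1.57, 8.15 and 18.8 CPM, so members were higher in 5 of 5 samples. The log2 fold change was 0.59 ± 0.11 (SE, n = 5, edgeR adjusted p = 0.0103), and 0.42 in 4 of 5 samples with the long-gene share matched (edgeR adjusted p = 0.456).

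The myogenic determination genes separated the samples. Myod1, the bHLH factor that commits cells to the muscle lineage, stood at 82.4 CPM in the members and 41.4 CPM in the matched cells of young replicate 1. Old replicate 1 stood at 191 against 41.4 CPM. In young replicate 2 the values were 367 and 377 CPM, in old replicate 2, 417 and 360 CPM, and in old replicate 3, 758 and 760 CPM. Myod1 was higher in members of the samples with the lowest levels in matched cells, in young replicate 1 by 0.99 and in old replicate 1 by 2.20 on the log2 scale, and within 0.21 of the matched cells in the other 3 samples. Over all 5 samples the log2 fold change of 0.52 ± 0.39 (SE, n = 5, edgeR adjusted p = 0.419) was within the spread between samples, as it was with the long-gene share matched, at 0.69 (edgeR adjusted p = 0.584).

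The share of cells showed the same split. After thinning to 5000 UMIs, which left out between 8 and 29 cells per class and sample, Myod1 was detected in 29.5% of the members and 15.8% of the matched cells of young replicate 1. In old replicate 1 it was detected in 47.3% against 10.5%. The shares were, in young replicate 2, 75.0% and 75.9%, in old replicate 2, 76.0% and 68.4%, and in old replicate 3, 90.7% and 87.4%. The share was higher in members in 4 of 5 samples, by a mean of 12.1 percentage points (two-sided exact sign-flip permutation test, p = 0.125, Benjamini-Hochberg adjusted over 6 measures 0.25). With the long-gene share matched it was higher in 5 of 5 samples, by a mean of 12.9 percentage points (two-sided exact sign-flip permutation test, p = 0.0625, Benjamini-Hochberg adjusted over 6 measures 0.188). Neither Myf5 nor Myod1 was detected in 43.7% of the members of old replicate 1 and in 86.4% of its matched cells. In young replicate 1 these shares were 70.5% and 84.2%, so most members of that sample held no detected UMI of either factor at this depth.

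Some other satellite cell and myoblast genes also had their largest ratios in young replicate 1 and old replicate 1. These were also the samples counted with Cell Ranger 7.0.0 against the shorter gene list. Each ratio compares cells of the same library. These 2 samples also had the lowest Pax7 levels of the 5, at 9.93 and 12.3 CPM over all kept cells. Their shares of Myog-positive cells were the smallest, at 4.89% and 1.15% against between 22.4% and 56.0% in the others. The split, for Myod1 and for the genes below, cannot be told apart from the difference in processing or from these differences in Pax7 and Myog. Cdh15, the adhesion molecule M-cadherin, stood at 16.5 against 7.38 CPM in young replicate 1 and at 21 against 5.55 CPM in old replicate 1. In young replicate 2 it stood at 63.2 against 58.1 CPM, and in old replicates 2 and 3 at 96.5 against 77.7 and 36.3 against 31.1 CPM. It was higher in 5 of 5 samples, with a log2 fold change of 0.49 ± 0.28 (SE, n = 5, edgeR adjusted p = 0.297), and 0.55 with the long-gene share matched (edgeR adjusted p = 0.582). The share of cells with Cdh15 after thinning was a mean of 5.42 points higher in members, in 5 of 5 samples (two-sided exact sign-flip permutation test, p = 0.0625, adjusted over 6 measures 0.188). Cxcr4, a chemokine receptor of migrating myoblasts, had log2 ratios of 1.51 in young replicate 1 and 2.02 in old replicate 1, against 0.10, 0.40 and 0.23 in young replicate 2 and old replicates 2 and 3. Des, the muscle intermediate filament protein, had ratios of 1.26 and 2.48 in young replicate 1 and old replicate 1 and between -0.04 and 0.07 in the others. The same 2 samples had the higher myocyte marker sums in members, and the widest gaps in the median mitochondrial share, 0.428 points in young replicate 1 and 0.584 in old replicate 1 against between -0.0795 and 0.0512 in the others, and the part of either in these results was not tested. Myf5 held 0 counts in young replicate 1, and Itga7, an integrin of myoblasts, stood at 0.31 there against 1.33 in old replicate 1. The 8 tested genes of the satellite cell and myoblast list had a median log2 fold change of 0.47, all 8 above 0, and none was called, against a median of 0.00 over all genes tested.

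**Figure D4:**
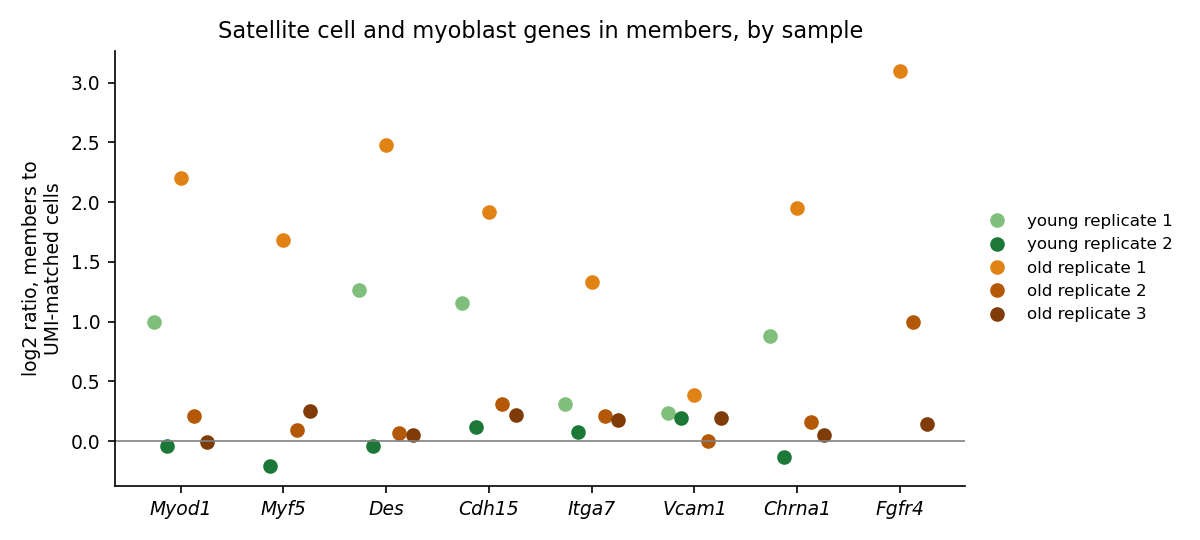
Each point is the log2 ratio of members to UMI-matched cells in 1 sample for satellite cell and myoblast genes, leaving out samples with 3 or fewer counts in both classes. Old replicate 1 is the highest for every gene shown, at 2.20 for Myod1 and 2.48 for Des, and young replicate 1 is next for Myod1, Des and Cdh15, for which the other 3 samples lie between -0.04 and 0.31.

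Among the 16 tested specification factors, 3 were called higher under UMI matching and 0 lower, with a median log2 fold change of 0.33. For this and each list below that compares members with matched cells under UMI matching, the shares over all genes were 6.7% higher and 11.1% lower, and the median over all genes 0.00. Eya4, a transcriptional coactivator that spans 248 kb, stood at 0.39 (edgeR adjusted p = 0.0119) and at 0.10 with the long-gene share matched. Six4, a homeodomain factor of muscle precursors, stood at 0.39 (edgeR adjusted p = 0.0336) and 0.34. Pax3, the paralogue of Pax7, was not called, at -0.08 and -0.20, and its level in the matched members ranged from 0.294 CPM in young replicate 2 to 26.4 CPM in old replicate 3. Under the second matching the list's median was 0.27 with 13 of 15 above 0 and 0 called.

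Of 20 tested surface and adhesion genes, 5 were called higher under UMI matching and 0 lower, with a median of 0.20, where 6.7% of all genes were called higher. That share is over genes of every span. Of the genes spanning 100 to 300 kb, 20.3% were called higher, and no list was compared with genes of its own span. Megf10, a receptor of satellite cells that interacts with Notch signalling, held 81.6 and 57.7 CPM in the members of young replicates 1 and 2 and 83.2, 56.8 and 98.3 CPM in the old replicates, against 49.7, 41.9, 51.1, 48.3 and 74.2 CPM in matched cells. Its log2 fold change was 0.41 (edgeR adjusted p = 0.00831) and 0.23 with the long-gene share matched (edgeR adjusted p = 0.447). Ncam1, a neural cell adhesion molecule also found on myoblasts, went from 0.42 to 0.24, and Met, the receptor of hepatocyte growth factor, from 0.33 to 0.20. Cdh2 went from 0.18 to 0.02 and Dag1, the core of the dystroglycan complex, from 0.19 to 0.02. Cd34, a sialomucin of quiescent satellite cells, was lower in members, at -0.53 (edgeR adjusted p = 0.0614), and lower in 5 of 5 samples with the long-gene share matched, at -0.52 (edgeR adjusted p = 0.447, DESeq2 adjusted p = 0.0312).

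Notch signalling keeps satellite cells undifferentiated. Of 14 tested receptors, ligands and targets, Notch1 at 0.45 (edgeR adjusted p = 0.0183) and Notch2 at 0.21 (edgeR adjusted p = 0.0115) were called higher under UMI matching. They stood, under the second matching, at 0.40 and 0.11, higher in 5 of 5 samples and not called. Hes1, a transcriptional target of Notch, stood at 0.24 (edgeR adjusted p = 0.054) and 0.27. The ligand Dll1 held 4.57 against 1.65 CPM in young replicate 1 and 13.2 against 2.70 CPM in old replicate 1, and its log2 ratio was between 0.19 and 0.33 in the other 3 samples. The median of the list was 0.25 under UMI matching and 0.24 with the long-gene share matched, where 11 of 14 genes were above 0.

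For 11 genes reported elsewhere as targets of Pax3 or Pax7, the median log2 fold change was 0.49 under UMI matching, with Met and Dmrt2 called higher and 10 of 11 above 0. Under the second matching it was 0.42, with 11 of 11 above 0 and 0 called. Myf5, Myod1, Cdh15 and Fgfr4 are also on the satellite cell and myoblast list, so the medians of these lists are not separate results. Myod1, Cdh15 and Cxcr4 had their largest ratios in young replicate 1 and old replicate 1. Under UMI matching Myod1 and Myf5 were lower in members of young replicate 2. Id3, an inhibitor of bHLH factors, held 472 and 1010 CPM in the members of young replicates 1 and 2 and 587, 2170 and 2870 CPM in the old replicates, against 327, 934, 333, 1899 and 2763 CPM in matched cells. It was higher in 5 of 5 samples, at 0.25 (edgeR adjusted p = 0.23) and, with the long-gene share matched, 0.36 (edgeR adjusted p = 0.459, DESeq2 adjusted p = 0.00620). Plagl1, an imprinted zinc finger factor, was at 0.64 (edgeR adjusted p = 0.0605) and 0.54 (DESeq2 adjusted p = 0.00610). Among 13 inhibitors of the myogenic bHLH factors, only the long genes Zeb1 and Zeb2 were called higher by edgeR under UMI matching, and their fold changes went from 0.31 to 0.07 and from 0.30 to 0.12 with the long-gene share matched.

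Satellite cells rest outside the cell cycle until activated. Of 19 tested genes of this quiescent state, Rb1, Ddx6, Txnip and Foxo1 were called higher and the metallothioneins Mt1 and Mt2 lower under UMI matching, with a list median of 0.18, and 0.03 with the long-gene share matched. Foxo1, a forkhead factor that restrains growth, held 0.35 and 0.24 under the 2 matchings and was the furthest from 0 of these 6 on the log2 scale. Calcr, the calcitonin receptor of quiescent satellite cells, was near absent, with at most 1 count in the matched members of any sample. Of 28 tested differentiation genes, Mef2a was called higher at 0.29 (0.09 under the second matching) and Acta1, skeletal muscle actin, lower at -0.60 (edgeR adjusted p = 0.0328). Acta1 stood, under the second matching, at -1.05, lower in 5 of 5 samples (edgeR adjusted p = 0.49). Of 18 genes of cell cycle arrest, Rb1 and Rbl1 were called higher and Trp53 lower under UMI matching, 3 of 18 where 17.8% of all genes were called, and 0 with the long-gene share matched. The 19 tested matrix genes of the niche held 0 calls and a median of -0.02.

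Cell cycle phases were called from scores for the S and G2/M genes, each the mean log level of the set less that of control genes. After thinning to 5000 UMIs, 46.2% and 59.9% of the members of young replicates 1 and 2 were called in S or G2/M, and 73.3%, 42.1% and 73.1% of those of old replicates 1, 2 and 3. The matched cells stood at 52.6%, 64.8%, 83.1%, 40.1% and 74.6%. Unthinned, the members stood at 44.1%, 57.1%, 73.0%, 41.5% and 73.0% and the matched cells at 51.1%, 61.7%, 82.1%, 38.2% and 73.8%. Members were lower in 4 of 5 samples, by -4.14 ± 4.53 points (SD, n = 5, two-sided exact sign-flip permutation test, p = 0.188, adjusted over 6 measures 0.281), while with the long-gene share matched they were higher in 3 of 5 samples, at a mean of -1.72 points (p = 0.688 by the same exact test). Under UMI matching the mean lay between -5.67 and -2.73 points when 1 replicate was left out, the latter without old replicate 1. It was -6.15 points at 2 or more Pax7 UMIs and -1.62 points without matching. The S share alone was lower in members in 5 of 5 samples, by a mean of -2.58 points (two-sided exact sign-flip permutation test, p = 0.0625, the smallest possible, not among the 6 adjusted measures), and in 4 of 5 with the long-gene share matched, at -2.39 points. The G2/M share was lower in 3 of 5 samples and higher in 2, at a mean of -1.56 points. The differences were -2.75 and -3.12 points in young replicates 1 and 2 and -8.28, 3.08 and 3.28 points in the old replicates. With the long-gene share matched the G2/M share was higher in 4 of 5, at a mean of 0.679 points. Mki67, a marker of dividing cells, was not called, at 0.16 (edgeR adjusted p = 0.127) and 0.09 under the second matching, with levels of 64.8 and 70.4 CPM in the matched members of young replicates 1 and 2 (81.4 CPM over all members of the latter) and 116, 58.4 and 65.9 CPM in the old replicates. Of the 43 S phase genes, 1 was called higher and 6 lower under UMI matching, where 6.7% and 11.1% of all genes were, and 0 with the long-gene share matched. Of the 54 G2 and mitosis genes, 3 and 2 were called under the first and 0 under the second, where 44 were above 0 at a median of 0.05.

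The median number of detected genes at 5000 UMIs was higher in members than in UMI-matched cells in 5 of 5 samples. The mean difference of the medians was 66.3 genes (two-sided exact sign-flip permutation test, p = 0.0625, the smallest possible, adjusted over 6 measures 0.188). With the long-gene share matched this mean difference was -0.5 genes. The median mitochondrial share was 2.73% in members and 2.31% in matched cells of young replicate 1 and 2.83% and 2.24% in old replicate 1. In young replicate 2 and old replicates 2 and 3 it was 2.99%, 2.46% and 2.37% in members and 3.03%, 2.40% and 2.44% in matched cells.

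Splitting the members by their number of Pax7 UMIs gives a description of the rule's threshold. In old replicate 1, Myod1 stood at 39.4 CPM in Myog-negative cells with 0 Pax7 UMIs and at 169, 214 and 263 CPM with 1, 2 and 3 or more. In young replicate 1 it stood at 38.6, 76.3, 109 and 123 CPM. In young replicate 2 it was level, at 376, 374, 372 and 374 CPM. Old replicate 2 stood at 357, 423, 410 and 403 CPM, highest at 1 Pax7 UMI, and old replicate 3 at 709, 772, 756 and 681 CPM, lowest at 3 or more. Ncam1 and Mki67 were higher with 3 or more Pax7 UMIs than with 1 in all 5 samples, for Mki67 by 63.6 to 80.8 and 68.1 to 104 CPM in young replicates 1 and 2 and by 107 to 142, 52.1 to 78.3 and 57.5 to 89.8 CPM in the old replicates. Tm4sf1 went from 1210 CPM at 0 Pax7 UMIs to 634 CPM at 3 or more in young replicate 1 and from 789 to 347 CPM in old replicate 1. Total UMIs were not matched across these steps.

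**Figure D5:**
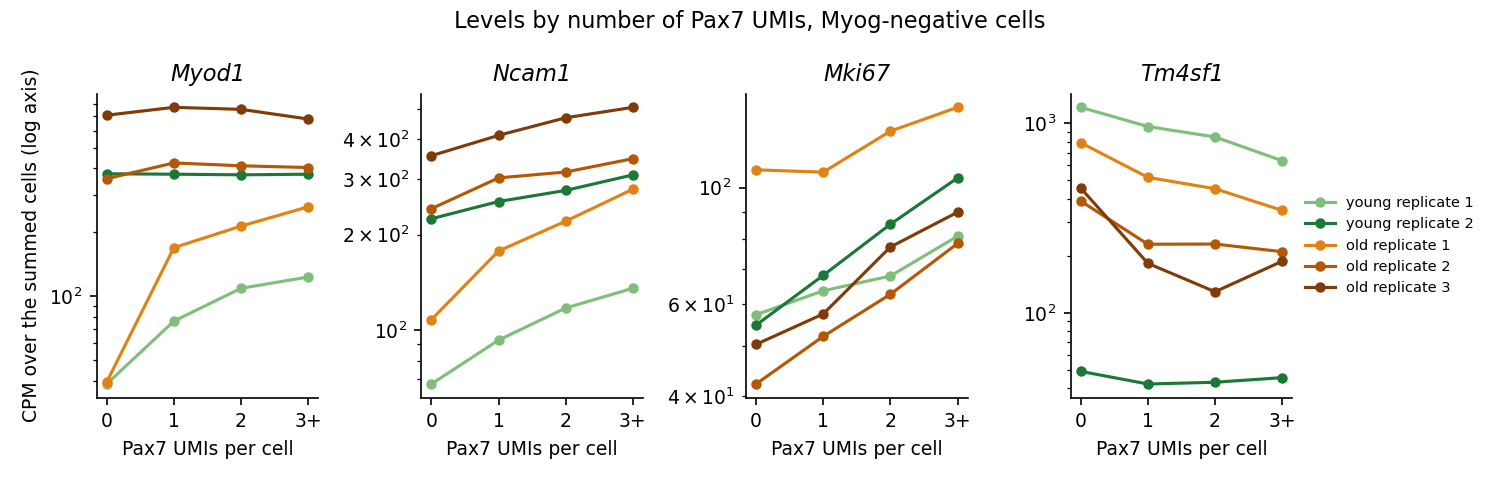
Levels in CPM (log axis) of 4 genes in Myog-negative cells, summed by the number of Pax7 UMIs per cell (0 is outside the rule, 1 and more are members), with 1 line per sample. Myod1 climbs with Pax7 UMIs in young replicate 1 and old replicate 1 and is level in young replicate 2, and Tm4sf1 is lower at 3 or more than at 0 in every sample.

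On the other side of the rule lie cells with a Pax7 UMI and a Myog UMI. With exactly 1 Myog UMI they held the fusion gene Mymk at 32.8 and 1.90 CPM in young replicates 1 and 2 and 23.7, 15.4 and 31.5 CPM in the old replicates. With 2 or more Myog UMIs Mymk stood at 218, 71.6, 188, 62.9 and 217 CPM in the same order. In members with 1 Pax7 UMI it stood at 2.87, 1.80, 5.33, 3.51 and 21.0 CPM. The cells with 1 Myog UMI in young replicate 1 and old replicate 1 were few, at 33 and 14, as were those with 2 or more, at 32 and 4. The value of 188 CPM in old replicate 1 rested on 9 Mymk counts, and that of 23.7 CPM on 6.

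The study set old against young populations. In the members this comparison rested on 2 young and 3 old samples, with the gene list as a term. Of 13008 genes tested, 0 were called (0%) by edgeR, 572 had an unadjusted p under 0.05 (4.4%), and DESeq2 called 150 higher (1.15%) and 41 lower (0.315%) in old, together 1.47%. With an edgeR test restricted to members with 2 or more Pax7 UMIs, 6 of 12009 genes were higher (0.0500%) and 1 lower (0.00833%). The smallest adjusted p of the main test named here was that of Gas6, at 0.105. The old and young levels did not overlap for 14.6% of the genes, 11.8% higher and 2.74% lower in old.

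Gas6, the ligand of the TAM receptor kinases, stood in the members at 0 and 0.0601 CPM in young replicates 1 and 2, on 0 and 5 counts, and, in old replicates 1, 2 and 3, at 2.65, 95.1 and 49.5 CPM. The groups did not overlap, and the adjusted p was 0.0284 by edgeR among members with 2 or more Pax7 UMIs. Alox5, the enzyme that opens leukotriene synthesis, stood at 0.244 and 0.0962 CPM in young members, on 4 and 8 counts, against 50.8, 75.6 and 107.8 CPM in old members, with edgeR adjusted p values of 0.113 over all members and 0.0284 at 2 or more Pax7 UMIs. Arhgdib went the other way, with 91.2 and 125.5 CPM in young members against 4.71, 2.82 and 5.51 CPM in old members and the same adjusted p values of 0.113 and 0.0284 by edgeR. These 3 genes were chosen after their values were seen.

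In the lists compared between old and young members, 10 of 20 quiescence genes, 12 of 20 surface genes, 9 of 14 Notch genes and 12 of 17 specification factors were above 0, and 0 were called. Above 0 were also 33 of 43 S phase genes, 38 of 54 G2 and mitosis genes, 14 of 18 arrest genes and 7 of 8 satellite cell and myoblast markers, and again 0 were called. In other lists 15 of 29 differentiation genes, 9 of 20 matrix genes, 2 of 7 fibro-adipogenic and 0 of 5 smooth muscle and pericyte markers were above 0. The median log2 fold change over all 13008 genes was 0.01, and 0 of them were called. The 5 genes given next were chosen after their values were seen, and the levels of each did not overlap between the groups. Fgfr4, a fibroblast growth factor receptor reported as a Pax target, was close to absent from the young members, with 0 and 2 counts in young replicates 1 and 2. It stood at 3.98, 2.57 and 25.6 CPM in old replicates 1, 2 and 3 (edgeR unadjusted p = 0.00423, adjusted p = 0.821). Its level in matched cells of old replicate 1 was 0.442 CPM, on 9 counts. Dll1 held 4.57 and 10.7 CPM in young members against 13.2, 32.9 and 25.6 CPM in old members (edgeR adjusted p = 0.711), and the ligand Jag2 at 7.98 and 3.23 against 23.4, 12.7 and 26.4 CPM (edgeR adjusted p = 0.98). Cd34 held 3.72 and 9.35 CPM in young members against 64.4, 33.4 and 24.9 CPM in old members (edgeR adjusted p = 0.98). Twist2, a bHLH repressor, was lower in the old, at 9.33, 1.62 and 2.22 CPM against 23.6 and 16.0 CPM (edgeR adjusted p = 0.599). None of these passed the edgeR test across all genes.

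Whether members differed from matched cells by another amount in old than in young samples was tested as an interaction. Of 12511 genes, edgeR called 0 (394 at an unadjusted p under 0.05), and DESeq2 called 0 higher and 4 lower in old (0.032%), which were Igfbp4, Ank, Plscr2 and Bdnf. With the long-gene share matched edgeR again called 0, with 266 at an unadjusted p under 0.05.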

How the data were processed

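Each sample's file, as the authors deposited it, holds UMI counts by gene and barcode, made with Cell Ranger 7.0.0 in 2 samples and 7.2.0 in 4, per the file headers. The submitters' processing notes name Cell Ranger 7.2.0, Seurat 5.134 and the build mm10. The annotation release, the counting of intronic reads and the calling of cells are not given in the sources used here. The members and gene lists were chosen with earlier results of these data known.

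Of 62849 barcodes, 801 under 1000 UMIs and 373 at 15% mitochondrial UMIs or more were left out. Members were matched 1 to 1, without replacement and in seeded order, to Pax7-negative Myog-negative cells of the same sample within 10% of total UMIs, and also within 20 strata of the share of UMIs from genes over 100 kb (GENCODE M21 spans, GRCm38). The sums per sample and class went into the two-sided robust quasi-likelihood test of edgeR 4.0.16 (R 4.3.3), with genes kept by filterByExpr, TMM scaling and Benjamini-Hochberg adjustment at 0.05. DESeq2 1.42.0 was an alternative. Pax7 and Myog were left out of the tests. SE is the absolute log2 fold change over the root of F. Per-sample log2 ratios add 0.5 to each summed count. CPM is relative to the total of the same summed class. The scripts were tested on simulated data. Cell cycle calls used scanpy 1.11.5 after thinning. Wilson intervals, at 95%, cover counting error only. In the naming rule, up to 15 genes per direction were taken by fold change among genes called, at a mean of 5 CPM or more and the same direction in every sample, besides genes of the lists. The p-values measure the spread between these 5 or 6 populations. A gene of the lists is not reported here.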

Additional observations from a re-analysis of the deposited data

Results flagged for a closer look

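Among 59 within-sample differences examined for a single sample far from the others, 7 had such a sample. Chance alone gives about 1 in 20 for independent differences. These 59 share the same samples and cells, and some of the genes were named for their fold change. The 7 therefore do not measure an excess over chance. In old replicate 1 the log2 ratio of members to UMI-matched cells stood far above the other 4 samples for Vav3 (1.52), Mme (1.58), Tenm3 (1.29), Myf5 (1.68) and Itga7 (1.33). In old replicate 2 it did so for Pclo (0.96). In young replicate 1 it stood far below for Anxa3 (-2.81), on 0 counts against 3.

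The shorter gene list holds an entry named LACZ, a bacterial reporter gene that no comparison used. In young replicate 1 the members held 399 LACZ counts, and 29.3% of them (Wilson 95% interval 26.6% to 32.2%) held at least 1, against 315 counts and 24.5% (22.0% to 27.2%) in matched cells. In old replicate 1, counted against the same list, members and matched cells held 0 counts. By a floor of 3 counts, 0 of 1206 cells allows a share of cells with a UMI of up to 0.249%, and by the Wilson 95% interval of up to 0.318%. Either limits detection and not expression.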

How the results depend on the processing

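The difference in member share changed sign at 2 or more Pax7 UMIs (-0.904 points) and after thinning (-0.0406), ranged from -8.40 to 12.1 points when 1 replicate was left out, and was 0.408 points with the replicate block. Same-numbered samples had correlations of 0.379, 0.224 and -0.0806 in their deviations from the group means, and young replicate 2 correlated more with old replicate 3 (0.275) than with its own number, so the numbers were not taken as pairs, and old against young in members gave 0 calls with the replicate block (474 at an unadjusted p under 0.05).

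Under UMI matching the count of higher genes was 555 with DESeq2, 1718 on the longer gene list only and 232 to 1653 when 1 replicate was left out, and the count of lower genes 516 to 2014 in the latter. With the long-gene share matched the counts were 0 and 5. From that base DESeq2 gave 7 and 53, no filter on low counts 15 lower, another seed 0 lower, and leaving out a replicate 0 to 1 higher and 0 to 20 lower. Old against young gave 150 and 41 with DESeq2, 9 and 1 without a filter, and 6 and 1 at 2 or more Pax7 UMIs. The interaction gave 4 lower with DESeq2, 1 lower without a filter, and 0 to 1 higher and 0 to 3 lower when a replicate was left out. The cause of these changes was not tested. Of 52 genes followed singly, 31 lost their call with the long-gene share matched and 0 reversed. Several of these folds stayed about as large, as for Crct1 (-1.79 and -1.74), Sgcd (-1.34 and -1.33) and Nipal1 (-1.15 and -1.06), so a lost call does not show that a difference went. The other 21 genes did not change. Because edgeR called only 5 genes with the long-gene share matched, most of those 21 were called under neither matching.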

Other observations

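Differences between members and matched cells that fell on whole chromosomes were seen in 2 samples. With the long-gene share matched, the median log2 ratio over 568 genes of chromosome 1 was -0.18 in old replicate 1, and that over 475 genes of chromosome 10, which carries Myf5, was 0.13. The other chromosomes of that sample lay between -0.02 and 0.08. In old replicate 2, chromosome 15 stood at -0.09 over 381 genes and chromosome 13 at 0.05 over 367 genes. The other chromosomes of that sample lay between -0.03 and 0.02. In young replicates 1 and 2 and old replicate 3 the medians lay between -0.02 and 0.03. The source of these shifts was not tested.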
